A study of Rattus norvegicus with 4 samples.

Results

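The comparison set untreated senescent mesenchymal stem cells against untreated young ones, in 1 library each, across 12228 of the 34034 genes listed. These were the genes with at least 40 counts summed over the 4 libraries of the study, and the pair compared makes up 2 of those 4 libraries. The senescent control held rat (Rattus norvegicus) mesenchymal stem cells labelled senescent, with femurs as their source. They were kept in osteogenic induction medium and had vehicle for 24 h, and RNA was taken at day 1. The young control held cells labelled young, with the same source, medium, vehicle and time. The other libraries held senescent cells given TSA (trichostatin A, which blocks histone deacetylases) together with phenamil (an amiloride derivative), and senescent cells given TSA alone. The design text names benzyl ether where the labels name phenamil. How the cells became senescent, their passage, and the strain, age, sex and number of donor animals are not stated in the labels used here. All groups therefore share the femur source and the osteogenic medium, and no library shows cells outside that medium. Total counts were 11024227 in the senescent control and 10905230 in the young control, and 9873894 to 10720172 in the treated libraries.

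Mesenchymal stem cells are stromal progenitors of the bone marrow that can form bone, cartilage and fat cells, and in osteogenic medium they begin to lay down a collagen matrix that later mineralizes. Senescence is a lasting exit from the cell cycle that follows repeated division or damage, and senescent cells are known for cell cycle inhibitors, an enlarged shape, altered metabolism and a secretory phenotype of cytokines, proteases and growth factor binding proteins. In bone marrow, stromal cells of old donors or late passage are known for reduced bone formation.

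Levels are given in CPM, a gene's counts relative to the scaled size of its library, after scaling by the trimmed mean of M-values, and a ratio is the scaled level in the senescent control over that in the young control. Parentheses hold the 95% exact counting interval of a ratio. These intervals cover the counting error of reads only, and not the spread between cultures. Repeated reads of 1 molecule cannot be told from reads of several, so the intervals may be too narrow for counts of molecules. With 1 library per side there was no replicate check and no p-value, and each ratio compares 2 libraries and not the conditions as such. A gene was called higher or lower where its whole interval lay past a named fold, and the calls are ranks of size, not tests. The libraries were made by a 3' tag kit, so a count stands for the end of a transcript, and in bulk RNA fewer cells of a type cannot be told apart from less RNA per cell.

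Both libraries held transcripts of stromal marker genes. All 12 mesenchymal stromal markers passed the count minimum and summed to 66384 CPM in the senescent control and 71867 CPM in the young control. The sum came mostly through Col1a1, Col1a2, Sparc, Vim and Col3a1. The surface markers Eng and Nt5e were scarce, with 22 and 119 counts in the senescent control and 18 and 112 in the young control. Most defining genes of blood, endothelial, epithelial and fat cells had no count. Of 15 haematopoietic and macrophage markers 10, among them Ptprc, Cd68 and Csf1r, were at 0 in both libraries, and the list summed to 6.91 CPM in the senescent control and 6.41 CPM in the young control. Of 12 endothelial markers, 9 were at 0 in both, among them Pecam1, Cdh5 and Kdr, and the sums were 22.3 CPM in the senescent control and 31.8 CPM in the young control. Of 13 epithelial markers, 8 were at 0 in both, among them Epcam and Cdh1, while the sum was 29.0 CPM in the senescent control and 14.0 CPM in the young control. Adipocyte markers were at 0 in both libraries for 5 of 9 genes. Osteoclast markers were at 0 for 3 of 8, and summed to 65.7 CPM in the senescent control and 63.4 CPM in the young control, mostly through Ctsk. Skeletal muscle markers summed to 143 CPM in the senescent control and 85.2 CPM in the young control, mostly through Eno3 and Acta1, and neural and glial markers to 360.4 CPM in the senescent control and 309 CPM in the young control, mostly through S100b. Transcripts of the Y-linked genes Eif2s3y, Kdm5d and Uty were counted in both libraries, with 360, 158 and 159 counts in the senescent control and 279, 179 and 131 counts in the young control, and Xist had 0 counts in the senescent control and 3 in the young control.

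Most genes stood at nearly the same level in both libraries. The ratio lay within 1.2-fold for 60.9% of tested genes, within 1.5-fold for 86.3% and within 2-fold for 95.2%, and the median log2 ratio was 0.00467. The interval excluded a ratio of 1 on the higher side for 2219 genes (18.1%) and on the lower side for 2047 (16.7%), 34.9% in all. At 1.2-fold, 435 genes (3.56%) were called higher and 414 (3.39%) lower, 6.94% in all. At 1.5-fold, 89 (0.728%) were higher and 76 (0.622%) lower, 1.35% in all, and at 2-fold 14 (0.114%) were higher and 19 (0.155%) lower, 0.27% in all. The number of genes detected was alike, with 16367 genes having a count in the senescent control and 16277 in the young control, and 12161 genes reaching 1 CPM in the senescent control and 12046 in the young control. Of the 165 genes past 1.5-fold, 110 had fewer than 100 counts in the pair, and 14 of the higher and 18 of the lower ones carried only an identifier in place of a name.

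**Figure D1:**
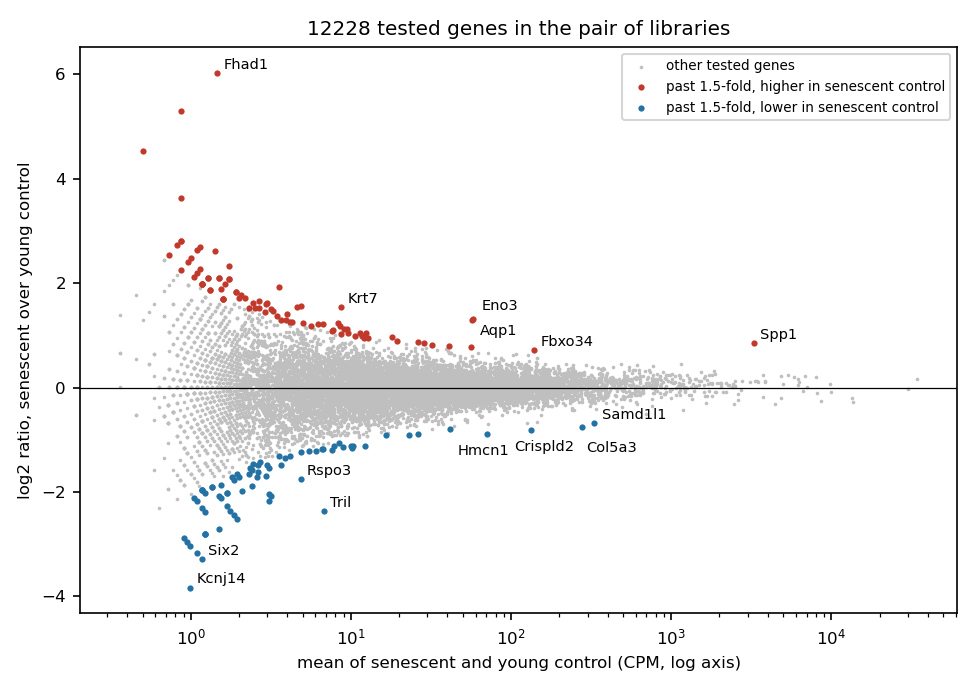
Log2 ratio of the senescent control over the young control (y axis) against the mean level of the pair in CPM (x axis, log scale), 1 point per tested gene. Points in colour are the 89 genes past 1.5-fold higher and the 76 past 1.5-fold lower in the senescent control; most lie below 10 CPM, and Spp1 stands apart among the abundant genes.

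How far genes departed from a ratio of 1 depended on their level. The standard deviation of log2 ratios was 0.814 for the 2703 genes up to 5 CPM, 0.293 for the 3348 genes from 10 to 30 CPM and 0.183 for the 1188 genes from 100 to 300 CPM. It then stopped falling, at 0.165 from 300 to 1000 CPM and 0.169 for the 119 genes above 1000 CPM. The spread that counting alone gives went on falling, to 0.0289 and 0.0145 in those last groups of genes, so for abundant genes the observed spread was well above counting error. The 119 most abundant genes held 38.3% of counts in the senescent control and 38.1% in the young control, and their extremes were Spp1 at a ratio of 1.798 and Col6a1 at 0.745.

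**Figure D2:**
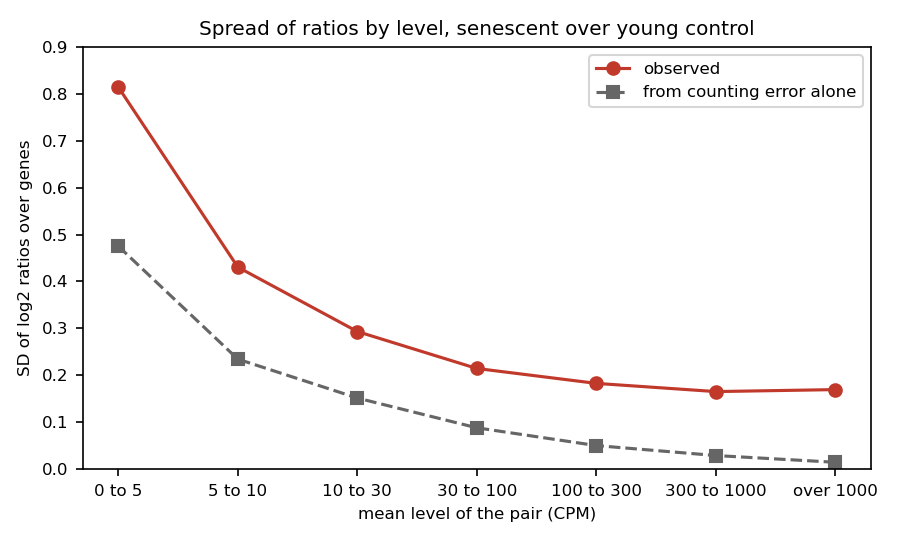
Standard deviation of the log2 ratio of the senescent control over the young control (y axis) by level in CPM (x axis), as observed and as counting error alone gives. The observed spread levels off at 0.165 to 0.169 in the most abundant genes, where counting error is 0.0289 and below.

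Abundant transcripts took much of the change in absolute terms. Summed over tested genes, 61386 CPM were gained and 43540 CPM lost in the senescent control, and 12 genes held 21.1% of the gain while another 12 held 25.8% of the loss. The difference between these totals is set by the scaling, with factors of 0.999 for the senescent control and 1.017 for the young control. It therefore does not show a net gain of transcripts. The gains were led by the mitochondrial large ribosomal RNA mt-Rnr2, at 36246 CPM in the senescent control and 32459 CPM in the young control, and by Spp1, which encodes the bone matrix phosphoprotein osteopontin, at 4201 CPM in the senescent control and 2337 CPM in the young control. Other large gains were in the mitochondrial messages COX1, CYTB, ND3, COX3 and ATP6, the calcium binding protein gene S100a6, fibronectin (Fn1), vimentin (Vim) and the crosslinking enzyme gene Lox. The losses were mostly matrix and contractile genes. Sparc, the matricellular glycoprotein osteonectin, stood at 12439 CPM in the senescent control and 14987 CPM in the young control, and Col1a2, the second chain of type I collagen, at 12509 CPM in the senescent control and 14314 CPM in the young control. The smooth muscle actin gene Acta2 stood at 4515 CPM in the senescent control and 5212 CPM in the young control. Col3a1, Col1a1, Col8a1, Col11a1, Col6a1, the matricellular gene Ccn2, Ccdc80, Fstl1 and the mitochondrial message ND4 made up the rest. As the rank is by CPM, some abundant genes entered it with ratios near 1. Col1a1 stood at 0.980 (0.976 to 0.985), Ccdc80 at 0.941, ATP6 at 1.05 and Vim at 1.07, whereas Col6a1 stood at 0.745 and Col3a1 at 0.801.

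**Figure D3:**
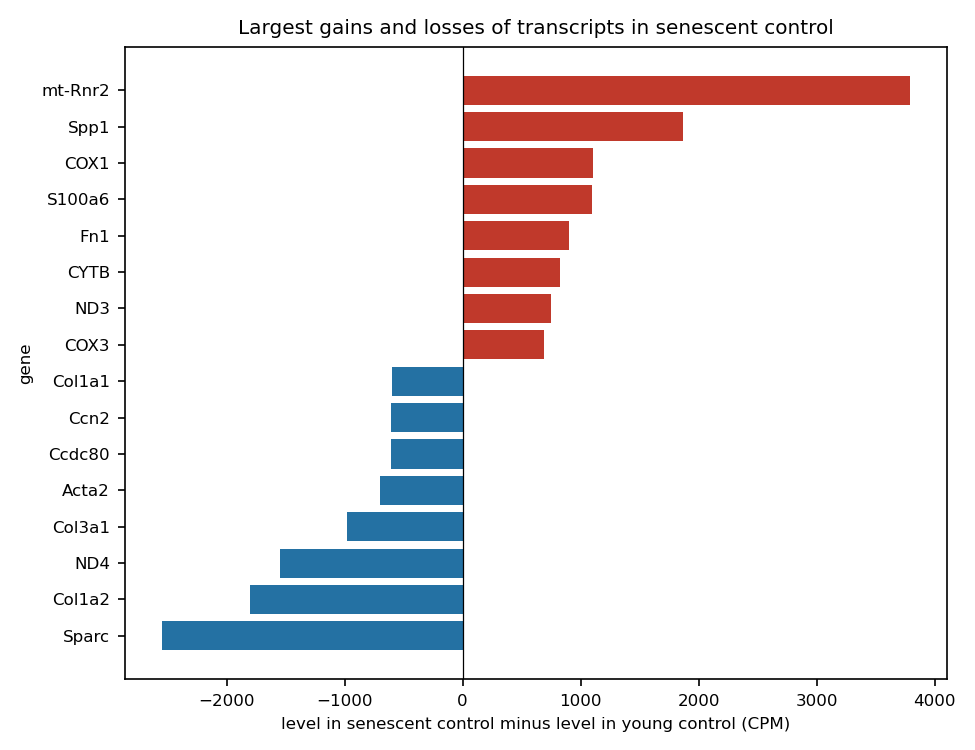
Difference in CPM, senescent control minus young control (x axis), for the 8 genes with the largest gain and the 8 with the largest loss. Gains are led by mt-Rnr2 and Spp1, and the losses by Sparc and Col1a2.

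Genes of a glycolytic enzyme, a water channel and a keratin were past 2-fold higher in the senescent control. They were the 3 such genes among those with at least 100 counts in the pair, which is 0.0308% of 9738 genes. Eno3 encodes the muscle form of the glycolytic enzyme enolase and stood at 82.5 CPM in the senescent control and 32.96 CPM in the young control, a ratio of 2.503 (2.21 to 2.83). Aqp1 encodes a water channel and stood at 80.7 CPM in the senescent control and 32.96 CPM in the young control, a ratio of 2.45 (2.17 to 2.78). Krt7, a keratin of simple epithelia, was scarce, with 143 counts in the senescent control and 49 in the young control and a ratio of 2.94 (2.11 to 4.15). The TSA + phenamil library had 41.6 CPM of Eno3, 29.7 of Aqp1 and 3.62 of Krt7, and the TSA library had 120.2, 121 and 18.9 CPM in the same order. All 3 genes stood highest in the TSA library, and with TSA + phenamil Eno3 lay between the senescent and the young control while Aqp1 and Krt7 lay below both. Eno3 belongs to the skeletal muscle markers. Of the others, Acta1 had a ratio of 1.32 (1.16 to 1.495), Des had 10 counts in the senescent control and 1 in the young control, and Tnnt1 had 11 in the senescent control and 2 in the young control. Ckm had 2 counts in the senescent control and 12 in the young control, Tnnc2 had 7 in the senescent control and 30 in the young control, and Myog had 0 in both, so these markers did not share a direction.

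Past 1.5-fold with at least 100 counts there were 32 higher genes, which is 0.329% of 9738. Several encode surface or secreted proteins. Cxcl16, a chemokine made as a membrane protein, had 80 counts in the senescent control and 27 in the young control, a ratio of 2.98 (1.91 to 4.803). Cd200, a surface glycoprotein that restrains myeloid cells, stood at 16.6 CPM in the senescent control and 8.04 CPM in the young control. Emb, which encodes embigin, a partner of monocarboxylate transporters, stood at 71.4 CPM in the senescent control and 41.4 CPM in the young control. Lamb3, the beta chain of the epithelial laminin-332, had 114 counts in the senescent control and 54 in the young control. Ratios of Cd200, Emb and Lamb3 were 2.07, 1.72 and 2.13. RT1-M3-1, a class I histocompatibility gene with many near-identical relatives among which reads may be split, had a ratio of 2.39 (1.72 to 3.35).

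Other higher genes act inside the cell, in different processes. Glrx, the thiol enzyme glutaredoxin, had a ratio of 2.36 (1.62 to 3.49), and Pex11g, a factor of peroxisome division, one of 2.27 (1.66 to 3.15). Nebl encodes nebulette, an actin binding protein of the Z-disc, with a ratio of 2.94 (1.86 to 4.79). Dusp7, a phosphatase of ERK kinases, stood at 33.9 CPM in the senescent control and 18.6 CPM in the young control, and Stmn2, a microtubule destabilizer best known from neurons, had 86 counts in the senescent control and 38 in the young control. The most precisely measured was Fbxo34, which encodes an F-box protein, with 1905 counts in the senescent control and 1170 in the young control and a ratio of 1.64 (1.52 to 1.77). Atp9a, a phospholipid flippase, had a ratio of 1.81 (1.54 to 2.14), and Ankrd37, a target of the hypoxia response, one of 2.38 (1.57 to 3.69). The part of the neural and glial markers in the Stmn2 difference was not tested.

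In the other direction, genes of a toll-like receptor accessory protein and of a WNT amplifier were past 2-fold lower in the senescent control, 2 genes or 0.0205% of the same 9738. Tril, an accessory protein of toll-like receptors, had 24 counts in the senescent control and 126 in the young control, a ratio of 0.192 (0.119 to 0.299). Rspo3, a secreted R-spondin that amplifies WNT signalling, had 24 counts in the senescent control and 83 in the young control, a ratio of 0.291 (0.177 to 0.463). Counts of Tril were 47 with TSA + phenamil and 21 with TSA, and those of Rspo3 were 73 with TSA + phenamil and 40 with TSA. Rspo3 was lowest in the senescent control of all 4 libraries. Tril was about as low with TSA, at 2.12 CPM, as in the senescent control, at 2.18 CPM.

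Past 1.5-fold with at least 100 counts there were 23 lower genes, 0.236% of 9738. Col5a3, a chain of type V collagen, stood at 205 CPM in the senescent control and 347 CPM in the young control, a ratio of 0.591 (0.561 to 0.623). Hmcn1, which encodes the large matrix protein hemicentin, stood at 49.6 CPM in the senescent control and 91.7 CPM in the young control. Crispld2, a secreted cysteine-rich protein, stood at 96.1 CPM in the senescent control and 169 CPM in the young control. Adamts2, the protease that removes the amino-terminal propeptide of procollagen, had a ratio of 0.457 (0.349 to 0.595). Hmcn1 and Crispld2 had ratios of 0.541 (0.487 to 0.601) and 0.568 (0.527 to 0.613).

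Other lower genes act in signalling, contraction and nucleotide metabolism, among further functions. Notch3, the Notch receptor of mural cells, stood at 16.004 CPM in the senescent control and 29.9 CPM in the young control, a ratio of 0.535 (0.443 to 0.645). Igfbp3, which binds insulin-like growth factors and is often listed in the secretory phenotype, was lower, at 0.429 (0.288 to 0.627). The immediate early genes Nr4a1 and Egr3, transcription factors switched on within minutes of a stimulus, had ratios of 0.435 (0.307 to 0.609) and 0.4602 (0.341 to 0.616). Myh11, the smooth muscle myosin heavy chain, stood at 30.6 CPM in the senescent control and 52.8 CPM in the young control. Dctpp1, a pyrophosphatase that clears dCTP, and Dhodh, an enzyme of pyrimidine synthesis in mitochondria, had ratios of 0.448 (0.333 to 0.599) and 0.424 (0.271 to 0.649). Samd1l1 was the most abundant gene past 1.5-fold lower, at 253 CPM in the senescent control and 404 CPM in the young control.

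**Figure D4:**
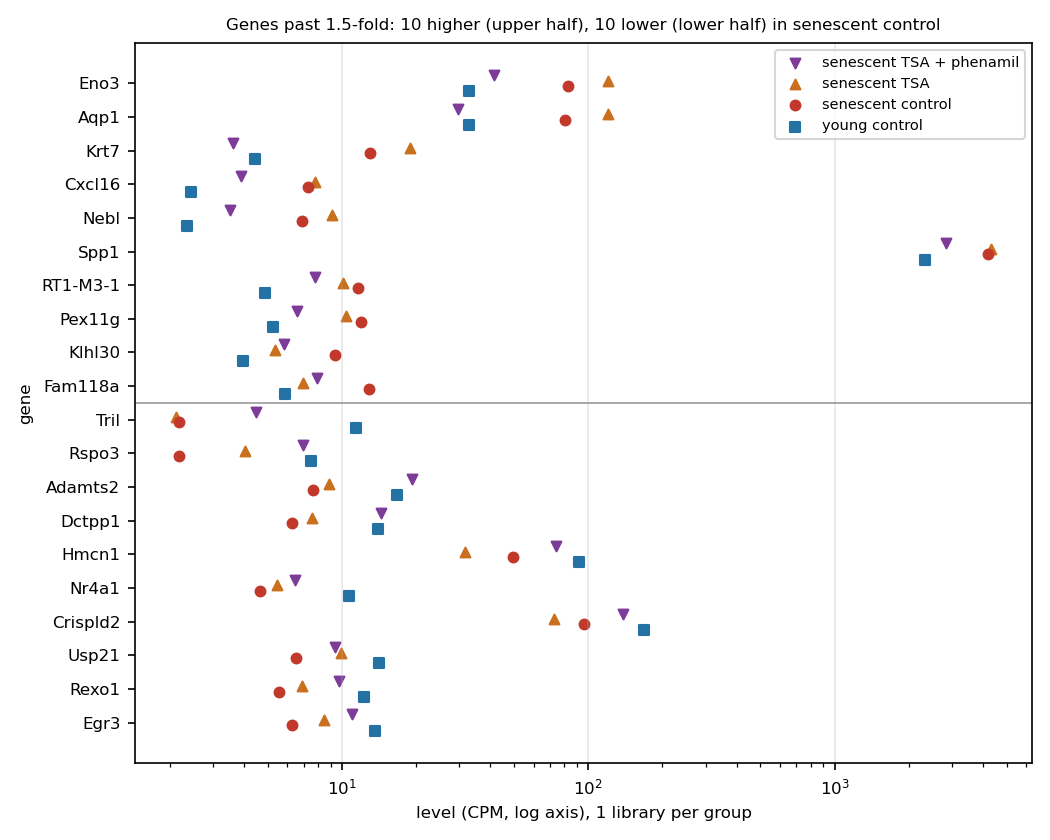
Level in CPM (log axis) of the leading higher and lower genes in the 4 libraries, 1 point per library: TSA + phenamil, TSA, senescent control and young control. The treated libraries are shown side by side with the pair and entered none of the ratios.

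Below 100 counts lay the largest ratios and the least certain ones. Fhad1 had 32 counts in the senescent control and 0 in the young control, which allows up to 3 counts in that library, so against that floor its scaled level was at least 10.7-fold higher, while the exact interval, which also covers the error of the 32, began at 8.24. It had 6 counts with TSA + phenamil and 28 with TSA. Hdc, the enzyme that makes histamine, had 27 counts in the senescent control and 4 in the young control, and Arg1, the urea cycle enzyme arginase, had 21 in the senescent control and 3 in the young control. In the other direction, Six2, a homeobox factor of mesenchymal progenitors, had 2 counts in the senescent control and 24 in the young control. Glis1, a zinc finger factor, had 4 in the senescent control and 29 in the young control, and the potassium channel gene Kcnj14 had 1 in the senescent control and 21 in the young control. Such genes passed the count minimum partly through the library in which they were high. Some members of the gene lists described next also had fewer than 100 counts in the pair. Among them were Emilin2, Tgfbi, Comp, Notch4, Fzd3, Wnt10a, Wnt2, Tnfaip3, Acvr2b, Polk, Gins2, Cdk2 and Gdf15.

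Collagen and basement membrane genes were called lower more often than higher. Of 25 collagen genes tested, 11 (44.0%) were past 1.2-fold lower and 0 higher, against 3.39% lower and 3.56% higher of all tested genes, 20 ratios lay below 1, and the median log2 ratio was -0.27. Over all tested genes 49.4% of ratios lay below 1. Together the collagen genes summed to 60009 CPM in the senescent control and 65349 CPM in the young control. The called genes were led by Col5a3 at 0.591, Col6a1 at 0.745, Col27a1 at 0.697 and Col18a1 at 0.619, chains of types V, VI, XXVII and XVIII. Basement membrane genes split by type: 5 of 13 laminin, nidogen and related genes were lower, among them Hspg2 (perlecan) at 0.754 (0.7204 to 0.7897), Nid1 (nidogen-1) at 0.759 (0.719 to 0.802) and Lama4 at 0.725 (0.669 to 0.787). Their median log2 ratio was -0.29, and -0.11 over the 10 members with at least 100 counts in the pair, and Lamb3 was the 1 member past 1.2-fold higher. Among 15 genes of elastic fibres and microfibrils 2 were higher and 2 lower, with Emilin2 and Ltbp1 higher and Fbn1 and Fbln5 lower. None of 15 ADAMTS proteases was higher and 3 were lower, Adamts2, Adamts5 and Adamts10. Neither direction was called for any of 15 metalloproteinases and their inhibitors, whose median of 0.09 lay at -0.02 over members with at least 100 counts in the pair.

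Matricellular and processing genes did not share that direction. Of 17 matricellular genes 3 (17.6%) were higher and 1 (5.88%) lower, against 3.56% and 3.39% of all tested genes. The higher ones were Spp1, the most abundant of them, Smoc2 and Tgfbi. Tgfbi had only 33 counts in the senescent control and 14 in the young control. Of 20 collagen processing and crosslinking genes 3 (15%) were higher, Loxl3, P4ha3 and Lox, and 2 (10%) lower, Adamts2 and Pcolce. Lox, which crosslinks collagen and elastin, stood at 2037 CPM in the senescent control and 1641 CPM in the young control, a ratio of 1.24 (1.22 to 1.27). Osteoblast genes leaned low, with 10 of 14 ratios below 1 and a median of -0.21 that lay at -0.06 with no count minimum. Their calls were split, with 2 (14.3%) higher, Spp1 and Enpp1, and 2 (14.3%) lower, among them Bmp2. Of 13 chondrocyte genes 4 (30.8%) were higher, Comp, Hapln1, Sox9 and Cilp2, and 1 (7.69%) lower, Col9a2. Comp had only 34 counts in the senescent control and 10 in the young control. Lists share members, so Spp1 and Adamts2 are counted in more than 1 of them. Smooth muscle contractile genes gave 0 higher and 2 lower of 16, Myh11 and Actg2.

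Glycolysis had the highest share of genes called higher of any list of 10 or more tested members. Of 21 genes 7 (33.3%) were past 1.2-fold higher and 0 lower, against 3.56% and 3.39% of all tested genes. In the list 18 ratios lay above 1 and the median log2 ratio was 0.32, against 50.6% of ratios above 1 and a median of 0.00467 over all tested genes. The pathway turns glucose into pyruvate and lactate, and the called genes cover its lower steps and the exit of lactate. Beside Eno3, the lactate exporter Slc16a3 stood at 39.9 CPM in the senescent control and 22.9 CPM in the young control, a ratio of 1.74 (1.49 to 2.04). Ldha, which makes lactate from pyruvate, stood at 103 CPM in the senescent control and 70.7 CPM in the young control. Pgam1, Gapdh, Pgk1 and Tpi1, enzymes of the middle steps, had ratios of 1.31, 1.33, 1.297 and 1.29. Eno2, the neuronal enolase, had a ratio below 1, at 0.905 (0.8695 to 0.941), while the general enolase Eno1 stood at 1.21 (1.15 to 1.27). The list summed to 2783 CPM in the senescent control and 2344 CPM in the young control, and to 2316 CPM with TSA + phenamil and 2966 CPM with TSA. A separate list of 17 hypoxia response genes gave 1 higher and 1 lower and a median of -0.01, or 0.06 over members with at least 100 counts in the pair.

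The promoters of the 6 called genes that the table holds are shown, since genes of glycolysis stood higher together and the core of the hypoxia response element is known from several of them. Sequences are RefSeq's on the build GRCr8, from 250 bases before to 50 bases after the transcription start, 5′ to 3′ on the strand of the gene. The core was present in 3 of these 6. Capitals mark the core ACGTG on either strand, which reads CACGT on the other strand, and which overlaps the E-box CACGTG where that is present. The core was found in 10 of 20 glycolysis promoters in the table (50.0%), in 25.8% of the 9856 promoters of tested genes and in 19.7% of all 27457 promoters. It was found in 18.4% of 348 promoters of genes past 1.2-fold higher and in 17.5% of 314 of genes past 1.2-fold lower. A match is a description of letters, and no match says only that these letters are not in the window. Ldha lies at chr1:106507842-106508141 on the plus strand, with 3 matches. Gapdh lies at chr4:159652418-159652717 on the minus strand and Pgam1 at chr1:250672902-250673201 on the plus strand, with 1 match each. Eno3, with the largest ratio of the list, lies at chr10:55868936-55869235 on the plus strand, Slc16a3 at chr10:106712078-106712377 on the plus strand and Tpi1 at chr4:159305039-159305338 on the minus strand, with 0 matches each.
Ldha: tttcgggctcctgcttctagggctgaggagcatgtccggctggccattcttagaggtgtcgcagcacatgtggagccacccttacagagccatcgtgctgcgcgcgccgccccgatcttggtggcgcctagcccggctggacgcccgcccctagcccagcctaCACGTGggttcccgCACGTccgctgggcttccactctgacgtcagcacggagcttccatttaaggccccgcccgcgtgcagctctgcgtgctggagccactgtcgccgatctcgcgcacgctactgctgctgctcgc
Gapdh: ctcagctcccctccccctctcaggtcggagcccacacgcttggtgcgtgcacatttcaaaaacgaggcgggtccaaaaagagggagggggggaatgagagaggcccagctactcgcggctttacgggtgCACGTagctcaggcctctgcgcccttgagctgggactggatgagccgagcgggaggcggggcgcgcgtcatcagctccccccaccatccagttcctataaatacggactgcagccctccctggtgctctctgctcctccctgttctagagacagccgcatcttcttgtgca
Pgam1: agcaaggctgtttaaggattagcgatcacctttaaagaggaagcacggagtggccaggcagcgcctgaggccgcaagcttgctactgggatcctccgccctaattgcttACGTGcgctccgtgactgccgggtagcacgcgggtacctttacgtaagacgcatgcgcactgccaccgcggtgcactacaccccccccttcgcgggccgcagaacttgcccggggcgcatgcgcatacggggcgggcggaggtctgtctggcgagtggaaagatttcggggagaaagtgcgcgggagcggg
Eno3: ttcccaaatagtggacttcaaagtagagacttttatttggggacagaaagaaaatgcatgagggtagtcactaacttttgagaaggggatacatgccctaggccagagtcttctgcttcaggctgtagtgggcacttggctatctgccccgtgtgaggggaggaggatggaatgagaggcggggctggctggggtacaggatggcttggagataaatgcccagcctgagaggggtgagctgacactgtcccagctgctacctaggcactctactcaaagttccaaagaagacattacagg
Slc16a3: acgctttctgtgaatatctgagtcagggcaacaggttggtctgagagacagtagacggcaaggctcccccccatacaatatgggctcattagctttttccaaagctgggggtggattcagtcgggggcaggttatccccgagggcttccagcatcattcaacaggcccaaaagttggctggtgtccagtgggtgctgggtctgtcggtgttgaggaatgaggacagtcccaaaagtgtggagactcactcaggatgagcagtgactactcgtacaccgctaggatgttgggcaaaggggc
Tpi1: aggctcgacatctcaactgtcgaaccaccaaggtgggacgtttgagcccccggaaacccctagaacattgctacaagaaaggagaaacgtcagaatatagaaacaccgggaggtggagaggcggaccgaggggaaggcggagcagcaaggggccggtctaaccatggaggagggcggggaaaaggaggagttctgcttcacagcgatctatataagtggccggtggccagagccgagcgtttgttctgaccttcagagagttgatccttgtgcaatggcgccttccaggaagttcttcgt

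Lipid and redox metabolism leaned the same way with few calls. Of 24 cholesterol synthesis and uptake genes, 19 ratios lay above 1 and the median log2 ratio was 0.26, yet only Acat2, which makes acetoacetyl-CoA, was past 1.2-fold higher, at 1.37 (1.24 to 1.51). Dhcr7 and Lss, late enzymes of the pathway, stood at 1.41 (1.13 to 1.77) and 1.32 (1.11 to 1.58), and Hmgcs1 at 1.27 (1.17 to 1.39). Of 29 antioxidant and NRF2 genes 3 (10.3%) were higher, Sod3, Keap1 and Prdx3, and 0 lower, with a median of 0.14. Over all tested genes 3.56% were higher and 3.39% lower, and 50.6% of ratios lay above 1.

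Genes of mitochondria and ribosomes were shifted by small and similar amounts. Of 85 nuclear genes of the respiratory chain, 71 ratios lay above 1, 7 (8.24%) were past 1.2-fold higher and 0 lower, and the median log2 ratio was 0.15. Of all tested genes 50.6% had a ratio above 1 and 3.56% were called higher. The called genes were led by Cox6b2 at 2.81, Cox7a1 at 2.71, Ndufa12 at 1.49 and Cox7b at 1.37, all subunits of complexes I and IV. Cox6b2 and Cox7a1 were scarce, with 53 and 35 counts in the senescent control and 19 and 13 in the young control. The list summed to 18105 CPM in the senescent control and 16302 CPM in the young control. The 13 messages that mitochondria encode themselves summed to 56735 CPM in the senescent control and 53894 CPM in the young control, with 10 ratios above 1. Their exceptions were ND6 at 0.715 (0.626 to 0.816), ND4 at 0.836 (0.829 to 0.844) and ATP8 at 0.855 (0.829 to 0.881), and reads of messages that overlap or adjoin on this genome may be split between them. Of 83 cytosolic ribosomal protein genes, 71 ratios lay above 1 with a median of 0.13, and 4 were higher and 1 lower. Many of these have near-identical copies, so single members are uncertain. The list summed to 73988 CPM in the senescent control and 68533 CPM in the young control. Mitochondrial ribosomal proteins gave 54 of 74 ratios above 1 and a median of 0.10, with 2 higher, Mrpl20 and Mrpl18, and 0 lower. Translation factors gave 0 calls in 66 genes and a median of 0.07, and ribosome biogenesis genes 0 calls in 25 and a median of -0.02.

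**Figure D5:**
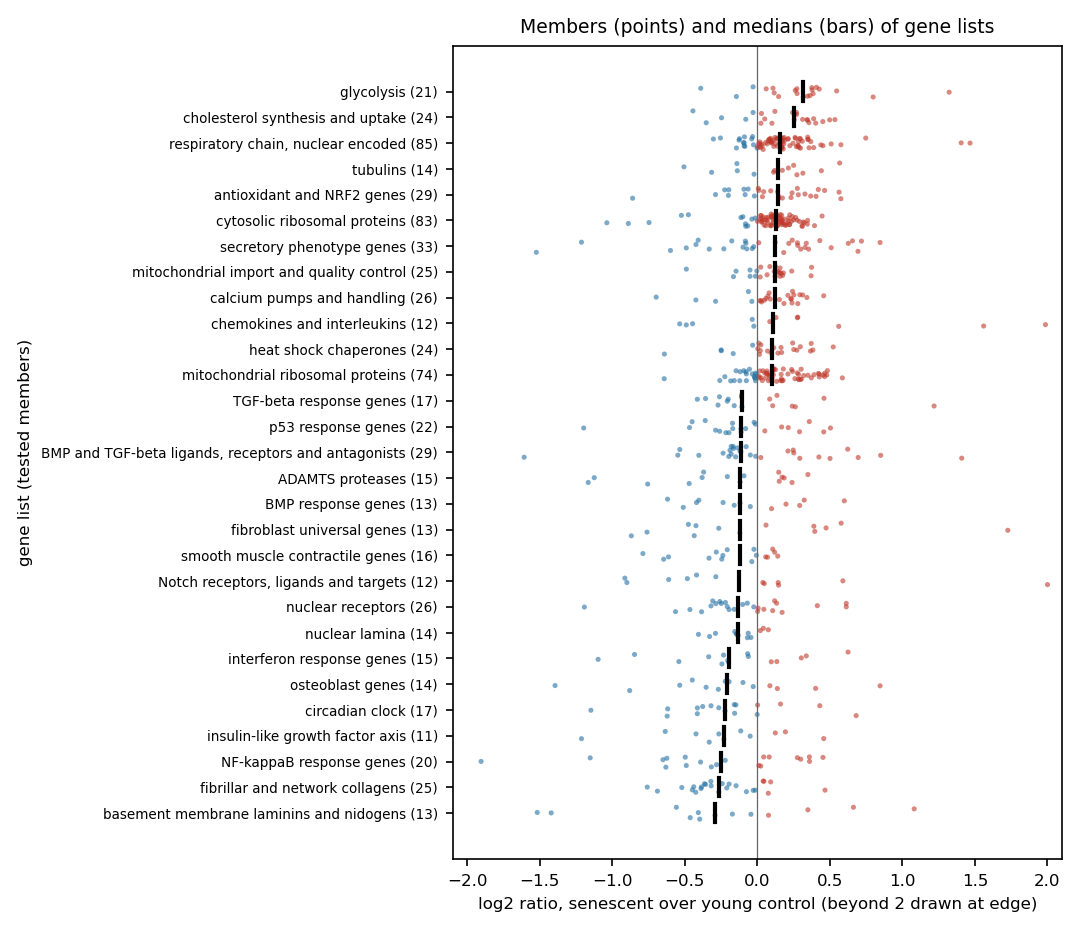
Log2 ratio of the senescent control over the young control (x axis) for the members of gene lists with at least 10 tested members and a median beyond 0.1 in either direction, 1 point per tested member, with the median as a bar. Glycolysis at 0.32 and cholesterol synthesis at 0.26 lie highest, and collagens at -0.27 and laminins at -0.29 lie lowest, the laminins partly through scarce members.

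Calls among secreted and signalling genes differed in direction by list, and are to be read beside the 6.94% of all tested genes past 1.2-fold (3.56% higher and 3.39% lower). Of 12 chemokines and interleukins 2 (16.7%) were higher, Cxcl16 among them, and 0 lower. Plasminogen activators and serpins also gave 2 (16.7%) higher of 12, Serpine2 among them, and 0 lower. Of 11 genes of the insulin-like growth factor axis 2 were lower, Igfbp3 and the binding protein protease Pappa at 0.644 (0.552 to 0.7499), and 0 higher. In the same axis Igfbp4 and Igfbp6 stood at 0.795 (0.731 to 0.863) and 0.746 (0.641 to 0.866). Among 12 Notch genes 3 (25%) were lower, Notch3, Notch1 and Hey2, and 1 higher, Notch4. Notch4 had 27 counts in the senescent control and 6 in the young control, and passed the count minimum only through the senescent control. Of 27 WNT ligands, receptors and inhibitors 2 were higher, Fzd3 and Wnt10a, and 3 lower, Rspo3, Wnt2 and Ror2. Wnt10a and Wnt2 had 21 and 6 counts in the senescent control and 7 and 27 in the young control. Of 30 immediate early genes 2 were higher, Fosl1 and Dusp6, and 2 lower, Nr4a1 and Egr3, while the abundant Egr1 and Jun stood at 0.981 (0.927 to 1.04) and 1.103 (0.973 to 1.25). NF-kappaB response genes gave 0 higher and 2 lower of 20, Tnfaip3 and Nfkbib. Tnfaip3 had 6 counts in the senescent control and 24 in the young control. The median log2 ratio of the list was -0.25, and 0.02 once members under 40 counts in the pair were left out. Interferon response genes gave 1 lower of 15, Ifit2. All 8 antigen presentation genes had ratios above 1, against 50.6% of all tested genes, with 0 calls.

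Ligands, receptors and lineage regulators were called in both directions. Of 29 BMP and TGF-beta ligands, receptors and antagonists 3 were higher and 2 lower. Bmp4, a bone morphogenetic protein, stood at 1.34 (1.27 to 1.42), the co-receptor Tgfbr3 (betaglycan) at 1.81 (1.22 to 2.74) and the antagonist Fst (follistatin) at 1.54 (1.42 to 1.68). Bmp2, a ligand used to induce bone, stood at 0.68996 (0.591 to 0.804) with 285 counts in the senescent control and 416 in the young control. The activin receptor Acvr2b stood at 0.3204 (0.162 to 0.596) with only 14 counts in the senescent control and 44 in the young control. None of 13 BMP response genes was called. Of 17 TGF-beta response genes 2 (11.8%) were higher, Tgfbi and Itgb5, and 1 (5.88%) lower, Col4a1, against 3.56% and 3.39% of all tested genes. Of 33 cytokine and interleukin receptor genes 4 were higher, among them Osmr, the oncostatin M receptor, at 1.95 (1.504 to 2.54) and Tnfrsf1b, a receptor of tumour necrosis factor, at 1.75 (1.29 to 2.39), and Tril was lower. Among lineage factors Sox9, the regulator of cartilage, stood at 1.43 (1.27 to 1.62) and Gata2 at 2.01 (1.34 to 3.08), while Hoxa3 stood at 0.608 (0.509 to 0.724). Osteogenic Enpp1, which makes pyrophosphate, an inhibitor of mineral growth, stood at 1.32 (1.27 to 1.37).

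Genes of the cell cycle and of senescence moved little. Of 15 cycle inhibitors and senescence markers none was past 1.2-fold in either direction, and 10 ratios lay below 1. Cdkn2b (p15), an inhibitor of CDK4 and CDK6, had the highest ratio among the members whose interval excluded 1, at 1.297 (1.198 to 1.404), with 129 CPM in the senescent control and 99.9 CPM in the young control. Cdkn1a (p21) stood at 0.991 (0.938 to 1.05), Cdkn2a, whose locus encodes p16 and p19, at 0.829 (0.572 to 1.199), Lmnb1 (lamin B1) at 0.907 (0.785 to 1.05) and Glb1, the lysosomal beta-galactosidase, at 1.23 (1.12 to 1.35). Of 22 p53 response genes 2 (9.09%) were higher, Ccng1 at 1.42 (1.32 to 1.53) and Pmaip1 (Noxa) at 1.37 (1.28 to 1.47), and 1 (4.55%) lower, Polk at 0.432 (0.264 to 0.688). Over all tested genes these shares were 3.56% and 3.39%. None of 30 mitosis genes was called, with a median of 0.04, and 1 of 33 DNA replication genes was lower, Gins2. Ccnd1 (cyclin D1), which drives entry into S phase, stood at 1324 CPM in the senescent control and 971 CPM in the young control, a ratio of 1.36 (1.33 to 1.398). Cdk2 stood at 0.495 (0.306 to 0.785).

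The secretory phenotype list was led by Spp1, and its members did not share a direction. Of 33 genes tested 3 (9.09%) were higher, Spp1, Csf1 and Serpine2, and 2 (6.06%) lower, Igfbp3 and Gdf15. Over all tested genes these shares were 3.56% and 3.39%. Gdf15 had only 9 counts in the senescent control and 27 in the young control. In the list 18 ratios lay above 1. The median log2 ratio was 0.12, and -0.01 among members with at least 100 counts in the pair. Il6 had 53 counts in the senescent control and 44 in the young control, a ratio of 1.21 (0.798 to 1.85), and Cxcl1 stood at 0.711 (0.531 to 0.948). Timp1, an inhibitor of metalloproteinases, stood at 1131 CPM in the senescent control and 973 CPM in the young control, a ratio of 1.16 (1.13 to 1.19).

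Nuclear structure, clock and nuclear receptor genes leaned low with almost no calls. For comparison, 49.4% of all tested genes had a ratio below 1, and 3.56% were past 1.2-fold higher and 3.39% lower. Of 14 nuclear lamina genes 11 ratios lay below 1 and 0 were called, with Syne1 (nesprin-1) at 0.819 (0.766 to 0.875) and Lmna at 0.9701 (0.939 to 1.002). Of 17 clock genes 13 ratios lay below 1, among them Per3 at 0.65004 (0.475 to 0.884) and Cry1 at 0.647 (0.435 to 0.955), whereas the repressors Bhlhe41 and Nfil3 stood at 1.35 (1.18 to 1.54) and 1.61 (1.16 to 2.25). Of 26 nuclear receptors 16 ratios lay below 1, and the 1 called gene was Nr4a1, lower. Of 37 chromatin writers, readers and erasers 1 was higher, Sirt7, and 3 lower, Crebbp, Brd3 and Kdm6b. Histone genes, whose messages partly lack the tail that the kit primes from and whose copies are nearly identical, gave 2 higher and 1 lower of 20.

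Channels and transporters gave scattered calls. Of 186 solute carriers 8 (4.30%) were higher and 5 (2.69%) lower, near the 3.56% and 3.39% of all tested genes, with Slc16a3 at 1.74, Slc17a9 at 1.62, Slc6a15 at 1.804 and Slc25a42 at 2.01 leading the higher ones and Slc22a5 at 0.201, Slc40a1 at 0.546, Slc12a9 at 0.518 and Slc2a12 at 0.664 the lower ones. Slc22a5 carries carnitine and had 4 counts in the senescent control and 20 in the young control, Slc40a1 (ferroportin) exports iron, and Slc17a9 loads nucleotides into vesicles. Calcium handling genes gave 21 of 26 ratios above 1, against 50.6% of all tested genes. They had 2 calls in each direction, Anxa1 and S100a10 higher and Itpr2 and Itpr1 lower. Itpr1 and Itpr2 encode calcium release channels of the endoplasmic reticulum, and S100a10 and Anxa1 calcium binding proteins of the cell membrane. Keratins rest on 4 tested genes: Krt7 and Krt8 were past 1.2-fold higher, Krt10 stood at 1.502 (1.07 to 2.13) and Krt42 at 0.352 (0.126 to 0.868).

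Over 85 lists with at least 4 tested members, the median log2 ratio was above 0.1 in 14, below -0.1 in 17 and within 0.1 in 54. The length of a gene in the genome moved with the ratio. When 12002 genes with a span in the reference table were cut into 5 equal classes from short to long, the medians were 0.04, 0.02, 0.01, -0.00326 and -0.06, and the calls past 1.2-fold were 112 higher and 76 lower in the shortest class and 66 higher and 110 lower in the longest. Less the median of each member's own class, the list medians were -0.21 for collagens, -0.29 for laminins and nidogens, 0.09 for cytosolic ribosomal proteins, 0.12 for the nuclear respiratory chain and 0.32 for glycolysis. The part of gene length in the calls was not tested beyond these values.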

How the data were processed

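RNA of 4 libraries, 1 per condition and all labelled as 1 batch, was extracted with TRIzol, made into libraries (Lexogen QuantSeq 3' mRNA-Seq, FWD) and sequenced on a NextSeq 500 as single-end reads, per the labels' protocols. The submitters' processing notes name the build mRatBN7.2 with HTSeq 2.0.2 and STAR 2.7.10b, without their roles. No source used here states the annotation, or whether strand or molecular identifiers were used, so overlapping and antisense genes may share reads. The deposited table holds raw counts per gene, per the file headers. The deposited log2 values are normalized, per the file headers, and recomputing them as log2(count / library factor + 1) left differences of at most 0.000545.

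Counts were scaled with edgeR 4.0.16 (TMM, R 4.3.3). A quasi-likelihood test leaves no residual degrees of freedom with 1 library per group and was not run. Log2 ratios used a prior count of 0.5 and ratios had Clopper-Pearson intervals at 95% of the conditional binomial (scipy 1.17.1, Python 3.11.15, numpy 2.4.6, pandas 2.3.3, matplotlib 3.10.9). The senescent control's floor of 3 counts is 0.273 CPM and the young control's 0.271 CPM. The procedure was tested on simulated data. Identifiers of 98.2% of tested genes were found in a reference table of GRCr8, another build, used for gene type, span and promoter sequence.

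The comparison, the 86 gene lists and the markers were chosen with earlier results of these data known. Named genes were the 25 highest and 25 lowest past 1.5-fold with at least 100 counts in the pair, ranked by the interval bound nearest to 1 (23 were lower), the 12 largest gains and losses in CPM, up to 4 called members per list and direction, and the markers. Genes below 100 counts and list members past these limits, such as Gapdh, Pgk1, Tpi1, Cdkn1a, Il6 and Per3, were chosen after their values were seen. A few genes that these rules name are not reported here. Alternatives were other count minimums, an interval at 99%, the ratio with no interval, assumed spreads between cultures, thinning, scaling by total counts or by size factors of DESeq2 1.42.0, TMM that left out mitochondrial and ribosomal protein genes, and the deposited log2 values.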

Additional observations from a re-analysis of the deposited data

How the results depend on the processing

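The 1.5-fold calls, 89 higher and 76 lower, and the 2-fold calls, 14 higher and 19 lower, stayed within 1.5 times of these counts with thinning, with scaling by total counts or DESeq2 size factors, and with TMM that left out mitochondrial and ribosomal protein genes. Filters, intervals and an assumed spread moved them, as follows, higher first. With no filter on low counts they were 181 and 160 at 1.5-fold and 49 and 57 at 2-fold; with 200 counts over 4 libraries 33 and 23, and 3 and 2; with 40 counts over the pair 54 and 49, and 4 and 7. With 100 counts in the pair, an alternative chosen after seeing the data, they were 32 and 23, and 3 and 2. By the ratio alone they were 818 and 857, and 316 and 270; by the deposited log2 values alone 497 and 526, and 73 and 62; with an interval at 99% 20 and 28, and 5 and 5. Where cultures were assumed to vary by a coefficient of 0.1, they were 43 and 44, and 7 and 16; with 0.2, 18 and 27, and 3 and 6. With at least 100 counts and an assumed 0.2, the 1.5-fold calls were Krt7 higher and Rspo3 and Tril lower. Total counts gave 75 and 88 at 1.5-fold.

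Of 847 list medians under the alternatives, 44 lay on the other side of 0, in 20 of 85 lists, and 65 lists had none. In 17 of the 20 the median was within 0.1. Of these, WNT genes lay at -0.0445 with 200 counts, cadherins at -0.207 and metalloproteinases at -0.0171 with 100 counts in the pair, receptor tyrosine kinases at -0.0383 and prostaglandin genes at 0.206 with either. The other 3 were Notch genes, at 0.0102 with no filter, NF-kappaB response genes, at 0.0171 with 200 counts, 40 counts over the pair or 100 counts in the pair, and secretory phenotype genes, at -0.00736 with no filter or 100 counts in the pair. With no change of sign, 4 medians passed the median lower or upper limit of their members' intervals: keratins at 1.60 and osteoblast genes at -0.0637 with no filter, mitochondrial messages at 0.0500 with total counts, and collagens at -0.208 less the median of their span class. Laminins lay at -0.108 with 200 counts. Of the 248 named genes none that was past 1.2-fold turned, and 24 values moved, nearly all with total counts. A wider interval and assumed spreads leave the ratio itself unchanged, and another scaling shifts all ratios alike by a small amount. These settings could therefore hardly turn a gene past 1.2-fold, and no conclusion is drawn from the absence of turns. No paired analysis was possible because each group had 1 library, and for the same reason no replicate could be left out. Depth limits genes below 5 CPM, where counting error alone gave a standard deviation of 0.475 in the log2 ratio.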

Other observations

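Chaperones and tubulins leaned high in the senescent control. Of 24 heat shock chaperone genes 19 ratios lay above 1, with Hspa8, the constitutive Hsc70, at 1.44 (1.28 to 1.61) and Hsp90aa1, the inducible Hsp90, at 1.29 (1.23 to 1.35) past 1.2-fold higher, and the small heat shock protein gene Hspb2 at 0.6403 (0.4995 to 0.818) past 1.2-fold lower. Of 14 tubulin genes 9 ratios lay above 1, with a median log2 ratio of 0.15. Past 1.2-fold higher were 2 of them, Tuba1a at 1.36 (1.31 to 1.41) and Tubb2b at 1.48 (1.31 to 1.68). Genes that mark fibroblasts of many tissues were split, with Sema3c, Pdpn and Comp higher and Dpt and Cd248 lower among 13. These calls are to be read beside the 3.56% of all tested genes past 1.2-fold higher and the 3.39% lower. The counts of ratios above 1 are to be read beside the 50.6% of all tested genes with such a ratio.

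Of 376 long noncoding RNA genes tested 16 were past 1.2-fold higher and 27 lower, with a median log2 ratio of -0.08. Among 11478 protein-coding genes 408 were higher and 356 lower, with a median of 0.00760. The groups differ in size, so these counts are not directly comparable, and 3.56% of all tested genes were higher and 3.39% lower. The noncoding genes held only 0.427% of counts in the senescent control and 0.450% in the young control. Scarce genes were called more often, 11.7% of those up to 5 CPM against 3.97% from 30 to 100 CPM. The part of level in the difference was not tested.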
